A study of Homo sapiens with 8 samples.

Results

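Dimethylation of lysine 4 of histone H3 (H3K4me2) was examined at 8 genes of the focal adhesion and the actin cytoskeleton in RD cells: ACTN4, ACTN1, FLNC, VCL, TLN1, ZYX, PXN and PTK2. RD is an established human rhabdomyosarcoma line, used here at passages p10-p15, and its chromatin was taken for immunoprecipitation and sequencing (ChIP-seq). One group had been transfected with a Silencer Select siRNA against LSD1 (siLSD1) and the other with a control siRNA (siCtrl), and both were harvested after 96 hours. A single siRNA construct stood for the knockdown, and each siRNA had 2 ChIP libraries that the submitters call biological replicates. The data at hand were lists of peaks, 1 per library and 1 per siRNA from pooled replicates, with no read counts, so that presence, breadth and the score of a peak could be described but not its height.

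The genes were chosen by name and with results of these lists in view, among them the very broad marked region at ACTN4. Each was given as an interval in the hg19 build, to the nearest kb, and peaks that overlapped the interval widened by 10 kb on each side were taken. Values in these intervals are therefore given as a description. The 8 widened intervals held 33 and 42 peaks of siCtrl replicates 1 and 2, out of 33878 and 44831 in the whole lists, and 47 and 52 peaks of siLSD1 replicates 1 and 2, out of 50587 and 49611. Merged across the 4 libraries they gave 58 of 58952 regions. All 8 genes had at least 1 region marked in every library. Distances below run from the start edge, which is the end of the interval where transcription of the gene begins, and are positive into the gene.

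Focal adhesions tie integrins, the receptors for extracellular matrix, to the actin cytoskeleton. Talin binds the integrin tail and actin, vinculin reinforces that link under force, α-actinins and filamins crosslink actin filaments, paxillin and zyxin are scaffolds, and focal adhesion kinase passes on the signal. H3K4me2 marks promoters and enhancers, and LSD1, a demethylase, removes methyl groups from mono- and dimethylated H3 lysine 4. The title of the study places the question in the adhesion of rhabdomyosarcoma cells. Peak lists hold no measure of LSD1 itself, so the knockdown could not be checked.

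The sequences below lie upstream of 6 of the 12 starts that RefSeq lists for 7 of these genes, the 5 with a match to a capitalised motif and, for comparison, the outermost PXN start. Each is the 250 bases before an annotated start, 5′ to 3′ on the strand of the gene, from RefSeq on GRCh38.p14, a later build than that of the peaks. Capitals mark matches on either strand to TGANTCA (the AP-1 motif), to GGAATG (the core of the TEAD motif, CATTCC on the other strand) and to the CArG box of serum response factor. GGGCGG (the GC box) and CANNTG (the E-box) were also searched and are not capitalised. Position -1 is the base next to the start.
ACTN4, outermost start, chr19:38647399-38647648, plus strand: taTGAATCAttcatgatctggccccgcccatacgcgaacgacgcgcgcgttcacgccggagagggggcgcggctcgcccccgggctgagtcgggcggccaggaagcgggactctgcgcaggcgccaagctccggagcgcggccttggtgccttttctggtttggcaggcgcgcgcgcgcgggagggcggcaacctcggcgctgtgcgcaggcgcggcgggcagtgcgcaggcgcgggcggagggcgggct
ACTN1, inner start, chr14:68977567-68977816, minus strand: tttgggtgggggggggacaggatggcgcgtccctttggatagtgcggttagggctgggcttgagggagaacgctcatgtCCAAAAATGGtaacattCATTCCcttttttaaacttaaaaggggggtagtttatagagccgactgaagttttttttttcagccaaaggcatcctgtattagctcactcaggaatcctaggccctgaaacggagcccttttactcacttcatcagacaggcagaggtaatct
FLNC, chr7:128830156-128830405, plus strand: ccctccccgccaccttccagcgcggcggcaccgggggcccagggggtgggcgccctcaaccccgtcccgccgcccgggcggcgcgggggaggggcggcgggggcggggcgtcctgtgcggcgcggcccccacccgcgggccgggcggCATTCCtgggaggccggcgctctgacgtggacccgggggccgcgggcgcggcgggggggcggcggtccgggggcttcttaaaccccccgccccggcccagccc
VCL, chr10:73997866-73998115, plus strand: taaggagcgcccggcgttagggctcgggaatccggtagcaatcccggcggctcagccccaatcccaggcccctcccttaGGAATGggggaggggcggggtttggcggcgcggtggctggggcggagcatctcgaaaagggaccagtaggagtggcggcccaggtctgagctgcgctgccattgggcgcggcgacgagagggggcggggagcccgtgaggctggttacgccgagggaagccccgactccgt
PXN, outermost start, chr12:120265731-120265980, minus strand: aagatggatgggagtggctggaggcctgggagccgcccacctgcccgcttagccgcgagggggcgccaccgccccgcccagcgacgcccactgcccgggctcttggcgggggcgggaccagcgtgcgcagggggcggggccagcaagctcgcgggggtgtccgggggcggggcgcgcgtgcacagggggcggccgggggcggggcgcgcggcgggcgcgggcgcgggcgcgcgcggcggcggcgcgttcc
PXN, inner start, chr12:120250164-120250413, minus strand: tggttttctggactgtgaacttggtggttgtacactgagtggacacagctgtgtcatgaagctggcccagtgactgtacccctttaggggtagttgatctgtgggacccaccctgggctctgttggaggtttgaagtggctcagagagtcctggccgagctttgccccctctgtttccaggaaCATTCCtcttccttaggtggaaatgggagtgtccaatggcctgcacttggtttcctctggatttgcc

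The match to the AP-1 motif in ACTN4 began at position -248. Matches to the TEAD core began at -103 in FLNC, -171 in VCL, -67 at the inner PXN start and -154 at the inner ACTN1 start, where a CArG box began at -171. Of 35116 promoters of the same length in the RefSeq table, 6.57% held a match to the AP-1 motif, 11.9% to the TEAD core and 1.16% to a CArG box, while 42.6% held GGGCGG and 61.8% held CANNTG. The 6 starts not printed (those of TLN1 and ZYX, the inner one of ACTN4 and the other 3 of ACTN1) had no such match. The outermost PXN start had none of the 3 capitalised motifs and 83.6% G and C, against 53.6% at the inner start. These are matches of letters and show no binding.

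Over the 8 loci, each siLSD1 library had more sequence under peaks than either siCtrl library, a direction that turned when the lists were scaled to the same total. The sum was 131.8 and 134.6 kb in siCtrl replicates 1 and 2 and 151.2 and 166.3 kb in siLSD1 replicates 1 and 2, or 13.9, 14.2, 15.9 and 17.5% of the 951 kb. Means were 133.2 ± 1.98 kb (SD, n = 2) and 158.7 ± 10.7 kb (SD, n = 2). The exact two-sided permutation p was 0.333, the smallest that 2 libraries against 2 can give. Groups of this size that do not overlap always give this p, so it adds nothing to the order of the libraries. The ratio of 1.19 was close to that of the whole lists, 1.23. As a share of all sequence under peaks in each list, the 8 loci took 0.188 and 0.143% in the siCtrl libraries and 0.156 and 0.159% in the siLSD1 libraries. The groups thus overlapped once list length was taken into account, and the difference of 25.5 kb became -7.18 kb with that scaling. Scaled sums were 171.8 and 130.7 kb in siCtrl replicates 1 and 2 and 142.6 and 145.5 kb in siLSD1 replicates 1 and 2. The turn thus came from siCtrl replicate 1, the shortest list, while siCtrl replicate 2 stayed below both siLSD1 libraries. The length of the lists was 70.1 and 94.1 Mb in siCtrl replicates 1 and 2 and 96.9 and 104 Mb in siLSD1 replicates 1 and 2. Both siLSD1 lists were longer, but siCtrl replicate 2 was nearer to siLSD1 replicate 1 than to siCtrl replicate 1. The part of list length in the single loci was not tested. In bulk chromatin, a mark in fewer cells and less mark in each cell cannot be told apart.

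**Figure D1:**
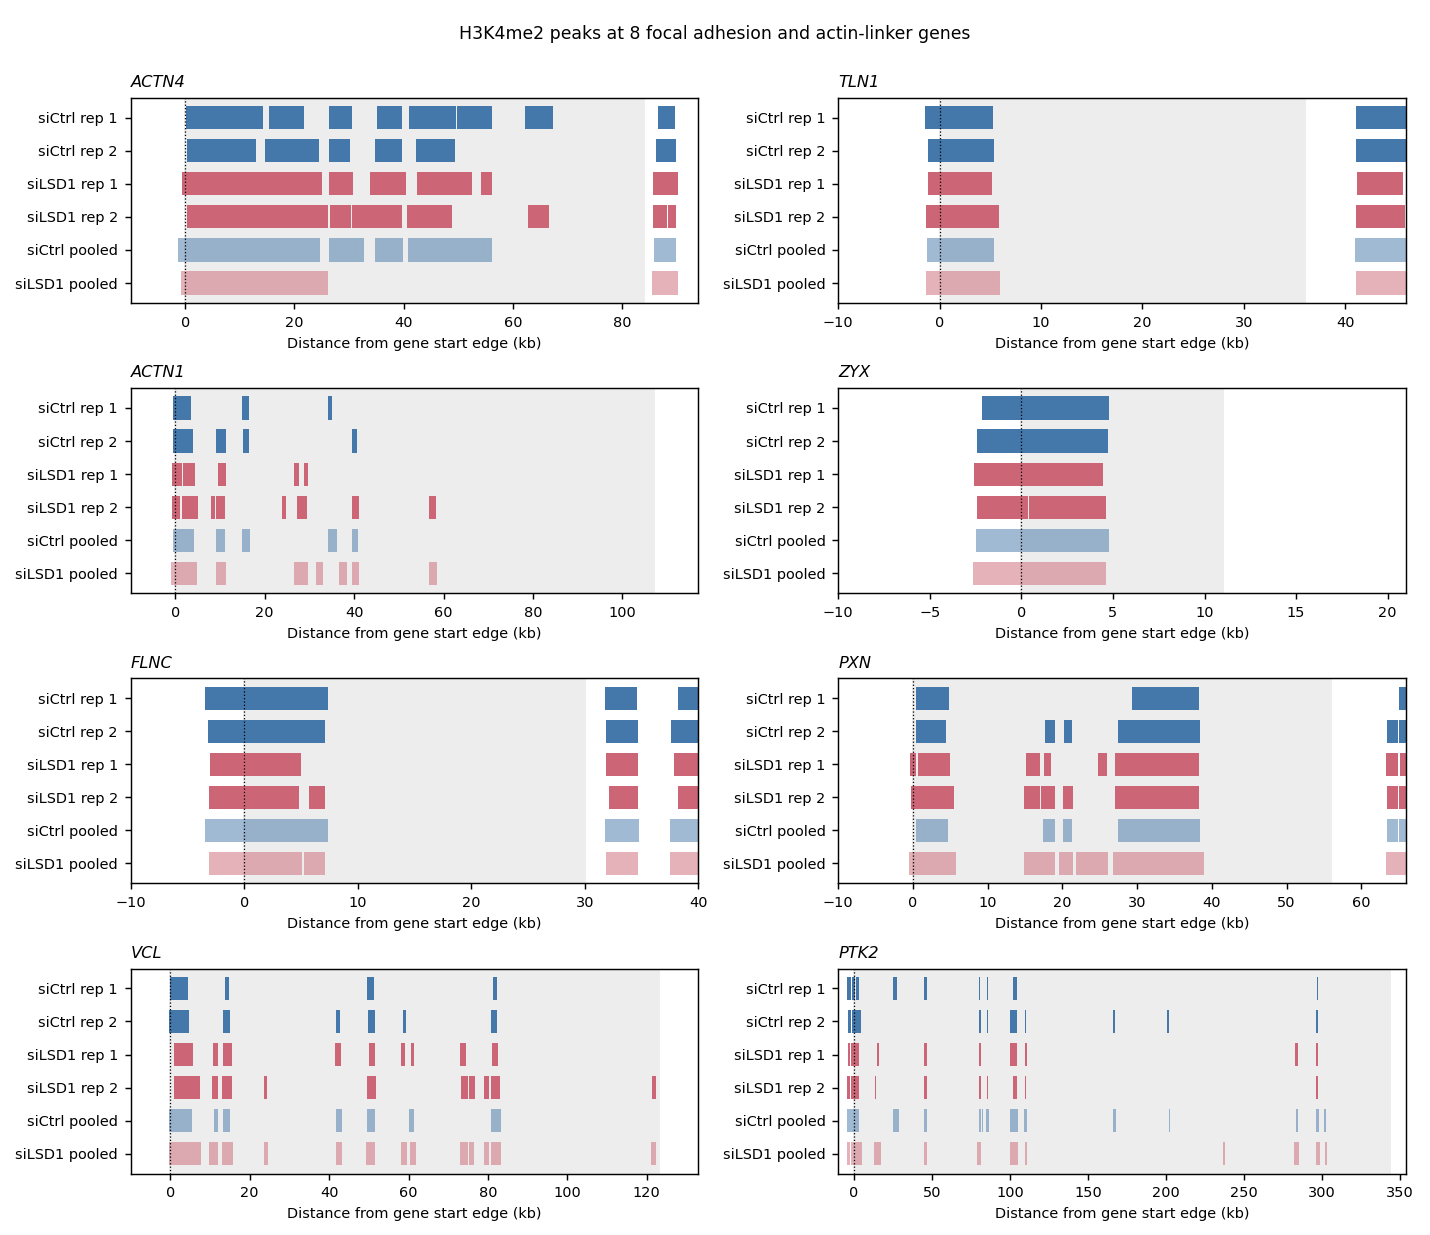
H3K4me2 peaks of the 4 library lists and the 2 pooled lists (rows) at the 8 genes, by distance in kb from the start edge (dotted line). Blue is siCtrl, red is siLSD1, pale bars are pooled lists, and grey shading is the gene interval. All 8 genes carry a block at or near the start edge, and the pooled siLSD1 row of ACTN4 is empty between 26.1 and 85.5 kb.

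The loci differed from one another. Covered length was higher in both siLSD1 libraries at 4 loci (ACTN1, VCL, PXN and ACTN4). Scaling turned the direction at ACTN4 and ended this order at ACTN1. Covered length was lower in both siLSD1 libraries at FLNC, and the groups overlapped at TLN1, ZYX and PTK2. How many other gene intervals of the genome had either order was not counted, so these counts of loci have no background. Both siLSD1 lists were also longer than both siCtrl lists. Of the 58 regions, 24 were found in all 4 libraries, 5 in both siLSD1 libraries and neither siCtrl library (siLSD1-only), and 1 in both siCtrl libraries and neither siLSD1 library (siCtrl-only). Over all regions the shares were 45.2, 6.97 and 1.04%, and 8.62% and 1.72% of the 58 were siLSD1-only and siCtrl-only, which is near that background. The other 28 regions were found in some libraries of both groups or in 1 library, 8 of them in siLSD1 replicate 2 alone. All 6 regions called in 1 group lay inside gene intervals, and none at a start edge. Of the 24 common regions, 9 were broader in both siLSD1 libraries (37.5%, background 30.3%) and 4 were narrower (16.7%, background 9.62%). Their median width was 4627 bp, against 2789 bp for all common regions.

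**Figure D2:**
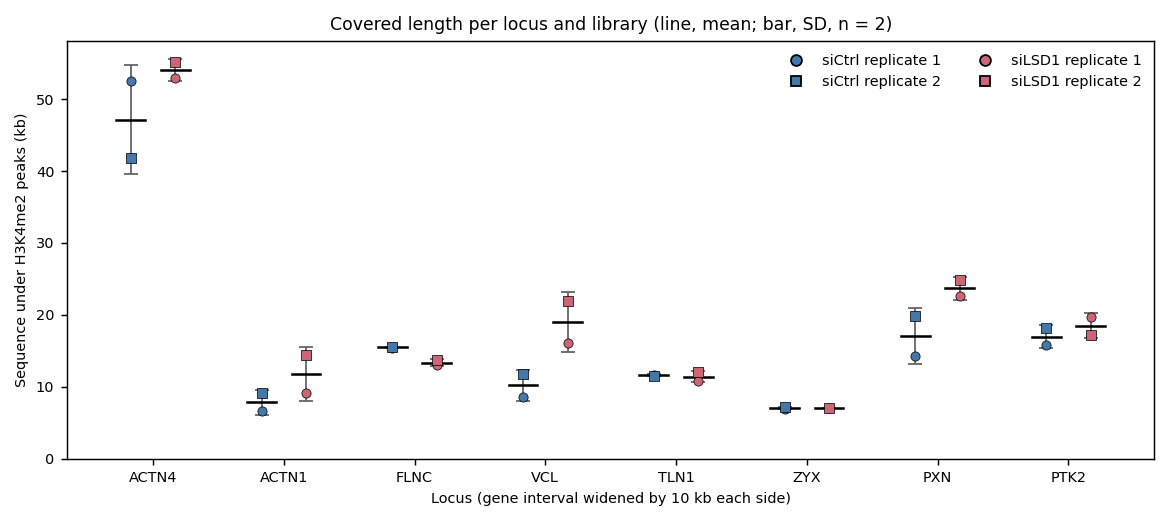
Sequence under H3K4me2 peaks (kb) in each widened locus. Points are libraries, horizontal lines are means and bars are SD (n = 2). ACTN4 carries between 41.8 and 55.2 kb and stands above the other 7 loci in every library, while ZYX lies between 6.91 and 7.17 kb.

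ACTN4 encodes α-actinin-4, a non-muscle crosslinker of actin filaments, and was the most densely marked of the 8 loci. Peaks covered 52.5 and 41.8 kb in siCtrl replicates 1 and 2 and 53.0 and 55.2 kb in siLSD1 replicates 1 and 2. Both siLSD1 values were above both siCtrl values, but siCtrl replicate 1 and siLSD1 replicate 1 were close. The difference of 6.94 kb was 12.3 kb without siCtrl replicate 1 and 1.55 kb without siCtrl replicate 2. It was -5.36 kb with lists scaled to the same total, so its direction depended on the scaling. The mark ran from the start edge into the body of the gene as a chain of blocks. The chain ended at 56.3 kb in siCtrl replicate 1 and 56.1 kb in siLSD1 replicate 1, with last peaks of low score (84.2 and 92.14). In siCtrl replicate 2 it ended at 49.4 kb and in siLSD1 replicate 2 at 48.9 kb. Another region at 62.3 to 67.4 kb had peaks in siCtrl replicate 1 and siLSD1 replicate 2, with scores of 132.26 and 51.5. A separate block lay at 85.6 to 90.2 kb, beyond the interval.

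The first block of ACTN4, on chromosome 19 from 39137479 to 39164081, was the second widest common region of the genome lists, at 26.6 kb. In siCtrl replicate 1 it was made of 2 peaks, from 0.189 to 14.3 kb and from 15.4 to 21.8 kb. In siCtrl replicate 2 it was also 2 peaks, from 0.372 to 12.9 kb and from 14.6 to 24.5 kb. Each siLSD1 library had a single peak instead, from -0.521 to 24.98 kb in replicate 1 and from 0.287 to 26.1 kb in replicate 2. The gap between the siCtrl peaks was thus under the peak in both siLSD1 libraries. The block also reached farther into the gene, though by little between siCtrl replicate 2 and siLSD1 replicate 1. In the pooled lists the gap was absent, with a single peak from -1.32 to 24.7 kb for siCtrl and from -0.739 to 26.1 kb for siLSD1. Covered length of the block in the libraries was 20.5 and 22.5 kb after siCtrl and 25.5 and 25.8 kb after siLSD1. It was the 1 region of the 24 common ones at these genes that had fewer peaks in each siLSD1 library than in each siCtrl library, as did 0.537% of all 26653 common regions. Fewer peaks were not particular to ACTN4 among very wide regions, since 3 of the 4 widest had them. The widest, on chromosome 7 from 27199276 to 27228798, was in 3 and 3 peaks after siCtrl and 2 and 1 after siLSD1, with 28.4 and 28.9 kb against 29.1 and 29.3 kb. The third, on chromosome 7 from 130584101 to 130608114, was in 4 and 4 peaks and then 2 and 1, and the fourth, on chromosome 22 from 46459741 to 46482224, in 3 and 2 and then 3 and 2.

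Farther into ACTN4, the second block (26.4 to 40.5 kb) had 8.74 and 8.65 kb under peaks after siCtrl and 11.02 and 13.2 kb after siLSD1, so the groups did not overlap. The third block (40.7 to 56.3 kb) had 15.0, 7.12, 12.0 and 8.23 kb in siCtrl replicates 1 and 2 and siLSD1 replicates 1 and 2, and the groups overlapped. RefSeq lists a second ACTN4 start 46.5 kb inside the outermost one on GRCh38, a distance that falls within this block if it holds on hg19. The block beyond the interval, where RefSeq has CAPN12 as the neighbouring gene, had 3.16 and 3.53 kb after siCtrl and 4.47 and 4.11 kb after siLSD1.

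ACTN1 encodes α-actinin-1, the close paralog of ACTN4, yet had far less sequence under peaks. Peaks covered 6.58 and 9.07 kb after siCtrl and 9.09 and 14.4 kb after siLSD1, so that siLSD1 replicate 1 and siCtrl replicate 2 were almost equal. The difference was 3.90 kb, or 6.54 kb without siLSD1 replicate 1 and 1.26 kb without siLSD1 replicate 2. The groups overlapped with lists scaled to the same total (1.88 kb) and with the interval not widened (3.74 kb). The block at the start edge, on chromosome 14 from 69442020 to 69447851, had 4.20 and 4.62 kb after siCtrl and 5.12 and 5.46 kb after siLSD1. It was a single peak in both siCtrl libraries. In both siLSD1 libraries it was split, into peaks from -0.728 to 1.57 kb and from 1.66 to 4.48 kb in replicate 1 and from -0.851 to 1.05 kb and from 1.43 to 4.98 kb in replicate 2. The pooled siLSD1 list had a single peak there. The inner start printed above lies 1.74 kb inside the outermost one on GRCh38. The distances of peaks run instead from the hg19 start edge, known to the nearest kb, so the start cannot be placed against the break.

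Within ACTN1, 2 narrow neighbouring regions were siLSD1-only, at 26.4 to 28.1 kb and at 28.2 to 29.7 kb. The first, on chromosome 14 from 69418870 to 69420551, had scores of 57.87 and 57.89 in the siLSD1 libraries, and the second, from 69417290 to 69418789, had 53.29 and 99.37. The lists begin at a score of 50, so 3 of these 4 scores ranked at or below percentile 6.40 of their lists and the other at percentile 26.1. The pooled siLSD1 list joined both regions into a peak with a score of 198.84, and the pooled siCtrl list had none there. The siCtrl-only region of ACTN1, from 69430537 to 69431981, lay at 15.0 to 16.5 kb and had scores of 114.01 and 89.41 in siCtrl replicates 1 and 2. A peak at 39.5 to 41.0 kb was found in siCtrl replicate 2 and siLSD1 replicate 2 and in neither replicate 1. RefSeq places the innermost ACTN1 start 41.4 kb inside the outermost one on GRCh38, a distance with another zero point than that of the peaks.

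FLNC encodes filamin C, the actin crosslinker of striated muscle. With all peaks and libraries, unscaled and in the widened intervals, it was the 1 locus with less sequence under peaks in both siLSD1 libraries. With lists scaled to the same total, TLN1 (-2.82 kb) and ZYX (-1.61 kb) were lower in both as well. So was ZYX with the interval not widened (-0.256 kb), and PTK2 with the upper 50% of each list by score. Peaks covered 15.4 and 15.5 kb after siCtrl and 13.0 and 13.7 kb after siLSD1. Means were 15.5 ± 0.0792 kb (SD, n = 2) and 13.3 ± 0.511 kb (SD, n = 2), a difference of -2.12 kb. The groups did not overlap under any of the 8 alternative treatments of the lists, and the difference ranged from -5.45 to -1.64 kb. Alternatives that left out a library could not make separate groups overlap, so only the others could have failed. The block at the start edge, on chromosome 7 from 128466526 to 128477379, had a difference of -1.90 kb, with 10.9 and 10.3 kb after siCtrl and 8.03 and 9.36 kb after siLSD1. In the siCtrl libraries it ended at 7.38 and 7.13 kb. In siLSD1 replicate 1 it ended at 4.99 kb, and in siLSD1 replicate 2 at 4.83 kb, with a separate peak of low score (66.64) from 5.74 to 7.14 kb. The outer end of the block differed less, at -3.47 and -3.19 kb after siCtrl and -3.04 and -3.12 kb after siLSD1. Its peaks ranked at percentiles 99.5, 98.9, 97.7 and 99.2 of the lists of siCtrl replicates 1 and 2 and siLSD1 replicates 1 and 2. In the flank beyond FLNC, where RefSeq lists ATP6V1F, a region at 31.8 to 34.7 kb had 2.78 and 2.80 kb after siCtrl and 2.77 and 2.55 kb after siLSD1, and the last region had 2.50, 3.07, 2.79 and 2.52 kb, with overlapping groups.

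VCL encodes vinculin, and with all peaks and libraries its locus had the largest difference in kb among the 8, though that of ACTN4 was larger with the upper 50% by score (9.496 against 4.67 kb) and without siCtrl replicate 1 (12.3 against 7.27 kb). Peaks covered 8.62 and 11.7 kb in siCtrl replicates 1 and 2 and 16.0 and 21.98 kb in siLSD1 replicates 1 and 2. Means were 10.2 ± 2.20 kb (SD, n = 2) and 19.0 ± 4.21 kb (SD, n = 2), a ratio of 1.87. The groups did not overlap under any of 8 alternatives, with differences from 4.67 to 11.8 kb around the 8.83 kb of all peaks. Those that left out a library could not have made them overlap. Without siLSD1 replicate 2 the difference was 5.85 kb. The number of peaks was 4 and 7 after siCtrl and 9 and 10 after siLSD1.

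At the VCL start, the block on chromosome 10 from 75756773 to 75764502 lay in a different place in the siLSD1 libraries. After siCtrl it began at -0.172 and -0.227 kb and ended at 4.34 and 4.72 kb, with a short break at 0.746 kb in replicate 2. After siLSD1 it began at 1.01 and 0.938 kb and ended at 5.76 and 7.50 kb. Both of its ends were therefore farther into the gene in each siLSD1 library than in either siCtrl library. The start edge itself, known to the nearest kb, was under a peak in the siCtrl libraries and under none in the siLSD1 libraries. In siCtrl replicate 2, however, the piece over the start edge was a separate peak of score 59.73, at percentile 6.44 of its list. The main peak of that library began at 0.775 kb, nearer to the siLSD1 peaks. Total length under peaks in the region was 4.51, 4.92, 4.75 and 6.57 kb in siCtrl replicates 1 and 2 and siLSD1 replicates 1 and 2, so the groups overlapped in length. The pooled siLSD1 list had a peak of score 52.97 from -0.359 to 0.774 kb beside the main peak, near the lowest score of the list.

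VCL had 2 siLSD1-only regions. The first, on chromosome 10 from 75830028 to 75832004, lay at 73.0 to 75.0 kb with scores of 155.81 and 229.5. With equal numbers of peaks per list it was still siLSD1-only, as 1 of 2 such regions at the 8 loci, where 3.29% of all regions were siLSD1-only. The other of the 2 was at ACTN1, and 1 region, at PTK2, was then siCtrl-only, against 3.42% of all. The second siLSD1-only region of VCL, from 75767557 to 75769134, lay at 10.6 to 12.1 kb with scores of 142.14 and 97.16. The pooled siCtrl list had a peak of score 75.8 at this second region although neither siCtrl library list did. Next to it, the common region at 13.1 to 15.7 kb had 1.13 and 1.68 kb after siCtrl and 2.34 and 2.52 kb after siLSD1.

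TLN1 encodes talin-1, which links integrin tails to actin. Its interval held no region apart from the block at the start edge, and a second region lay in the flank beyond the end of the gene, where RefSeq lists TPM2. Covered length was 11.7 and 11.5 kb after siCtrl and 10.8 and 12.0 kb after siLSD1, and the groups overlapped, but with scaled lists both siLSD1 libraries were lower (-2.82 kb). The start block, on chromosome 9 from 35727148 to 35734413, had 6.71, 6.48, 6.30 and 7.16 kb in siCtrl replicates 1 and 2 and siLSD1 replicates 1 and 2. It was 1 peak in each siCtrl library and 2 peaks in each siLSD1 library, with narrow breaks between 0.597 and 0.638 kb in replicate 1 and between 0.744 and 0.759 kb in replicate 2. The pooled siLSD1 list had a single peak there. With ACTN1 this made 2 of the 24 common regions in more peaks in both siLSD1 libraries, against 2.03% of all common regions. The flanking region had 4.99 and 5.31 kb after siCtrl and 4.53 and 4.85 kb after siLSD1.

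ZYX encodes zyxin, a scaffold of focal adhesions and stress fibres, and had a single block in every library. A single region on chromosome 7 from 143075429 to 143082757 held 6.91 and 7.17 kb after siCtrl and 7.02 and 7.00 kb after siLSD1. The difference of -0.0305 kb was smaller than the SD of 0.190 kb between the siCtrl libraries. The overlap of the groups ended with lists scaled to the same total (-1.61 kb) and with the interval not widened (-0.256 kb), both siLSD1 libraries being lower in each case. In siLSD1 replicate 2 the region was in 2 peaks, with the break between 0.358 and 0.395 kb.

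PXN encodes paxillin, a scaffold that binds vinculin and focal adhesion kinase. Covered length was 14.3 and 19.8 kb after siCtrl and 22.6 and 24.8 kb after siLSD1, with means of 17.0 ± 3.90 kb (SD, n = 2) and 23.7 ± 1.57 kb (SD, n = 2). The groups stayed apart under all 8 alternatives, with differences from 2.58 to 9.40 kb. Those that left out a library could not have made them overlap. The difference of 6.64 kb was 3.89 kb without siCtrl replicate 1. The start block, on chromosome 12 from 120698563 to 120704460, had 4.36 and 4.01 kb after siCtrl and 5.02 and 5.73 kb after siLSD1. Its peaks began at 0.441 kb in both siCtrl libraries, and at -0.460 and -0.293 kb in the siLSD1 libraries, where in replicate 1 the outer piece was a separate peak of score 63.94. At PXN the outermost siLSD1 peaks thus reached farther outward, the reverse of VCL. In siLSD1 replicate 1 this rested on that outer piece, at percentile 10.7 of its list, and the main peak began at 0.736 kb. At VCL the outer end of siCtrl replicate 2 was likewise a piece of low score (59.73). A broad block inside the gene, from 120665629 to 120676991 at 27.0 to 38.4 kb, had 8.94 and 10.96 kb after siCtrl and 11.2 and 11.3 kb after siLSD1. The siLSD1-only region of PXN, from 120687045 to 120689133, lay at 14.9 to 17.0 kb with scores of 163.45 and 74.58. RefSeq places the inner PXN start printed above 15.6 kb inside the outermost one on GRCh38, a distance with another zero point than that of the peaks. The region adjoined one at 17.1 to 19.1 kb that had peaks in siCtrl replicate 2 and both siLSD1 libraries, and it was no longer siLSD1-only when gaps up to 1000 bp were merged.

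PTK2 encodes focal adhesion kinase and is the longest of the genes, with 16 regions, 6 of them common. Covered length was 15.8 and 18.1 kb after siCtrl and 19.7 and 17.2 kb after siLSD1, with overlapping groups. The difference of 1.502 kb became -2.37 kb with the upper 50% of each list by score, -2.26 kb with scaled lists and -0.0075 kb with equal numbers of peaks. Around the start edge, on chromosome 8, the mark lay in 3 separate blocks in all 4 libraries. The outermost, from 142014094 to 142016319, had 2.21, 1.84, 1.79 and 1.94 kb in siCtrl replicates 1 and 2 and siLSD1 replicates 1 and 2. The one over the start edge, from 142011463 to 142013966, had 2.002 and 1.96 kb after siCtrl and 2.48 and 2.32 kb after siLSD1. The inner one, from 142008450 to 142011128, had 1.85 and 2.46 kb after siCtrl and 2.51 and 2.68 kb after siLSD1. Both of the last 2 were longer in both siLSD1 libraries, and a break between them was present in every library. Inside the gene, the broadest region (100.2 to 104.9 kb) had 2.40, 4.66, 4.33 and 2.81 kb in the same order of libraries, and 10 of the 16 regions were found in only some libraries.

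**Figure D3:**
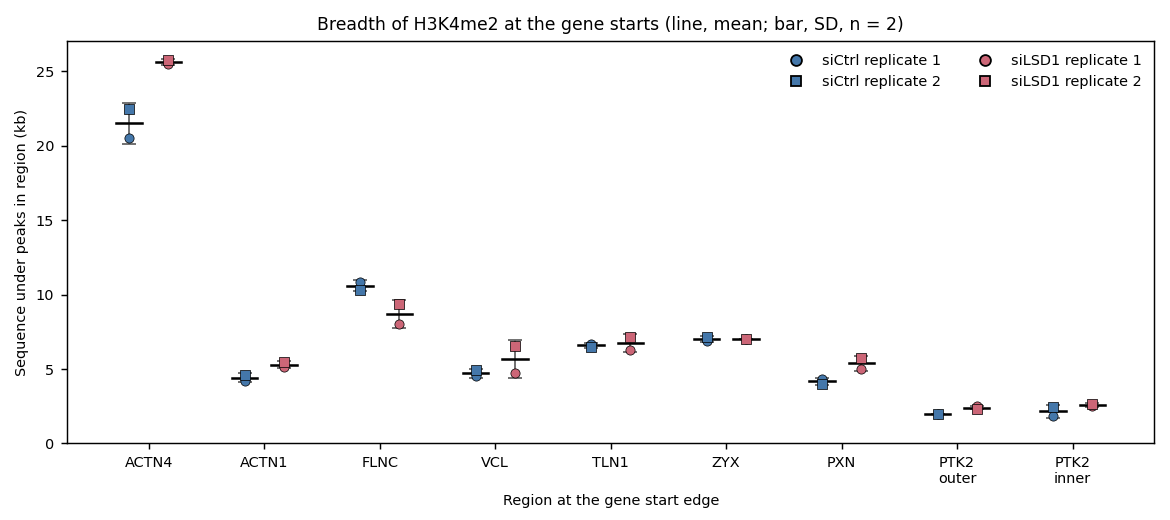
Sequence under H3K4me2 peaks (kb) in the regions at the start edges. Points are libraries, lines are means and bars are SD (n = 2), and PTK2 has 2 such regions. Both siLSD1 libraries lie above both siCtrl libraries for ACTN4, ACTN1, PXN and both PTK2 regions and below them for FLNC, and the groups overlap for VCL, TLN1 and ZYX.

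A fit across the genome asked whether any 10-kb window of these loci passed a test. Limma was applied to the kb under peaks in 43372 windows. After Benjamini-Hochberg adjustment 0 windows passed (0% higher and 0% lower), and 0 of the 44 tested windows of the 8 loci did. At an unadjusted p under 0.05, 6 of the 44 (13.6%) were higher after siLSD1 and 1 (2.27%) was lower, against 12.4% and 1.94% of all windows, so these loci were near the background. Of the 6 windows, 2 (1 each of ACTN1 and PTK2) had no peak after siCtrl and passed the filter on low values only through the siLSD1 libraries, so that they had to differ. Of all 5389 higher windows, 3060 passed in this way. Among windows that passed in both groups, 4 of 42 at these loci and 2329 of 39522 in all were higher. The median difference was 0.247 kb in the 44 windows and 0.213 kb in all. A count of 0 in this fit of 2 libraries against 2 does not show that windows did not differ. The lowest adjusted p of all windows was 0.129, and no count-based tool could be run on peak lists.

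Among the windows, the one with the most sequence under peaks was taken for each gene. For VCL this window, on chromosome 10 from 75760001 to 75770000, had 1.34 and 1.72 kb after siCtrl and 4.02 and 6.08 kb after siLSD1, with a limma difference of 3.52 ± 0.841 kb (SE) and an adjusted p of 0.202. For FLNC, from 128470001 to 128480000 on chromosome 7, values were 7.38 and 7.13 kb against 4.99 and 6.24 kb, with a limma difference of -1.64 ± 0.553 kb (SE) and an adjusted p of 0.363. For ACTN1 the limma difference was 0.880 ± 0.305 kb (adjusted p = 0.368), for PXN 1.94 ± 0.913 kb (adjusted p = 0.550) and for PTK2 0.545 ± 0.230 kb (adjusted p = 0.484). TLN1 and ZYX had limma differences of -0.0725 and 0.208 kb, with adjusted p of 0.966 and 0.801. The ACTN4 window was wholly under peaks in all 4 libraries and could show no difference. The lowest limma adjusted p in the 8 loci, 0.129, was also the lowest of all windows. In the 8 loci it was that of the VCL window over the start edge, from 75750001 to 75760000. The unadjusted limma p of this window was 0.00324. Benjamini-Hochberg adjustment can give windows of different p the same value, so the window need not be the first of the genome. This VCL window had 3.17 and 3.20 kb after siCtrl and 1.99 and 2.06 kb after siLSD1. In siCtrl replicate 2, 0.974 kb of this was the separate peak of score 59.73. Its limma difference was -1.16 ± 0.156 kb (SE), and it was singled out after its values were seen. The PTK2 window from 141990001 to 142000000, with no peak after siCtrl, was almost level, with a limma adjusted p of 0.1293 against 0.1292. Its unadjusted limma p was 0.00666.

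**Figure D4:**
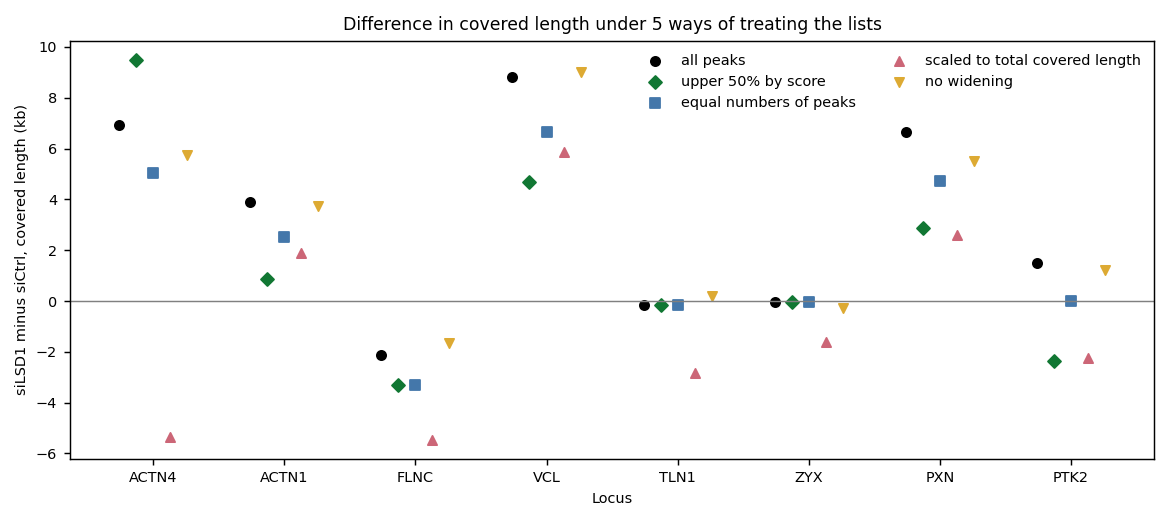
Difference in covered length between siLSD1 and siCtrl means (kb) at each locus under 5 ways of treating the lists (symbols). ACTN1, VCL and PXN stay above 0 and FLNC and ZYX below 0 with every symbol, ZYX by little with all peaks (-0.0305 kb). ACTN4, TLN1 and PTK2 fall on both sides of 0.

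The pooled lists, from which the submitters made their final analysis, differed from the library lists at ACTN4. The pooled siCtrl list had 5 peaks there, covering 56.7 kb, and the pooled siLSD1 list had 2, covering 31.6 kb. Both siLSD1 libraries had peaks at 26.4 to 40.5 kb, with best scores of 1429.03 and 880.82, and at 40.7 to 52.5 kb, with best scores of 444.28 and 1358.1. The pooled siLSD1 list had no peak in either stretch. The pooled lists alone thus put 3 peaks of ACTN4 in siCtrl only, where the library lists had the mark in both groups. Of 39351 regions found in both siLSD1 libraries, 87 (0.221%) had no peak in the pooled siLSD1 list, and the share was 5.75% (10 of 174) among those of 10 kb or more. For siCtrl the counts were 47 of 29427 (0.160%), and 3 of 105 (2.86%) for 10 kb or more. None of these siCtrl regions lay in the 8 loci, and both ACTN4 stretches were the only siLSD1 ones.

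At the other loci the pooled and library lists went the same way or were close. Covered length in the pooled siCtrl and siLSD1 lists was 16.0 and 29.8 kb for VCL, 20.5 and 31.5 kb for PXN, 11.8 and 17.8 kb for ACTN1 and 16.3 and 15.4 kb for FLNC. It was 11.6 and 12.2 kb for TLN1, 7.26 and 7.24 kb for ZYX and 29.9 and 30.8 kb for PTK2. These lengths were not scaled, and the whole pooled lists covered 107 Mb for siCtrl and 132 Mb for siLSD1. Of 51 pooled siLSD1 peaks in the 8 loci, 15 (29.4%) overlapped no pooled siCtrl peak, against 27.0% of the whole list, and 6 of them were in VCL. Of 44 pooled siCtrl peaks, 10 (22.7%) overlapped no pooled siLSD1 peak, against 8.86% of the whole list, and 3 of these were the ACTN4 peaks just described and 5 were in PTK2. Scores of 3100 or more piled up in some lists, with 899 peaks in siCtrl replicate 2, 3 of them in these loci, so high scores could not be ranked finely.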

How the data were processed

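H3K4me2 ChIP-seq peak lists of RD cells were analysed, 4 of libraries (2 per siRNA) and 2 of pooled replicates. The 4 input libraries were not analysed here. Reads were aligned with Bowtie to hg19, per the submitters' processing notes. Peak names carry the name of MACS, per the peak files. Not given in the sources used here are its version, its settings, its control and how replicates were pooled. The authors deposited a score with every peak, with a minimum of 50 or 50.01, whose scale no header states. Scores served only for ordering and selecting peaks inside 1 list. Depth is unknown without read counts.

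Members and lists were chosen with earlier results of these data known. Peaks on chromosomes 1 to 22 and X were kept, counted from 1, and between 3 and 26 peaks per library list were left out. The gene intervals, given to the nearest kb, were widened by 10 kb, and covered length was counted inside them. Strands were written down from general knowledge and match the RefSeq promoter table for the 7 genes it holds. Peaks of the 4 libraries that overlapped by 1 bp were merged into regions. Regions named are those at start edges, the broadest of each locus and those called in 1 group, with others where the text turns on them. Windows of 10 kb with at least 0.5 kb covered in 2 libraries were fitted with limma 3.58.1 (trend, robust; statmod 1.5.0, R 4.3.3), adjusted p under 0.05. The window of most covered sequence was named per locus, where at least 50% of it lay in the locus. Building of regions and limma were tested on simulated data, where limma recovered the size of shifts but called none of them at this number of libraries. Other focal adhesion genes were not analysed here, as no hg19 annotation was used. The rest was done in Python 3.11.15 with scipy 1.17.1, pandas 2.3.3 and numpy 2.4.6, and drawn with matplotlib 3.10.9. Alternatives were the upper 50% by score, equal numbers of peaks, scaling, other borders, other rules of overlap and merging, a replicate block, quantile normalization, no filter and leaving out each library.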

Additional observations from a re-analysis of the deposited data

How the results depend on the processing

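The difference over the 8 loci of 25.5 kb was 12.0 kb with the upper 50% of each list, 15.4 kb with equal numbers of peaks and -7.18 kb with lists scaled to the same total, and lay between 18.0 and 33.0 kb when 1 library was left out. Of the regions, 5 were siLSD1-only. This became 0 of 24 with the upper 50% by score (6.33% of all regions), 2 with equal numbers (1 of them among the 5, 3.29% of all), and 6 to 13 without 1 library (7.90 to 19.5% of all). The siCtrl-only count of 1 became 0 with the upper 50% by score (0.697% of all) and 1 to 5 without 1 library (2.49 to 7.05% of all). Leaving out a library loosens the rule by construction. Quantile normalization gave limma 5 windows higher and 4 lower, and 0 of the 44 windows of these loci. The named window of TLN1 reversed, to 0.0555 kb without siCtrl replicate 1 and 0.0170 kb without siLSD1 replicate 1 (range without 1 library -0.2005 to 0.0555 kb, all libraries -0.0725 kb), and that of ZYX reversed to -0.247 kb with quantile normalization. With a replicate block limma called 0 windows higher and 0 lower, with 6135 and 889 at an unadjusted p under 0.05, against 5389 and 840 without it. Deviations of same-numbered libraries correlated at 0.150 across windows. The labels do not say what a number stands for, so the pairing was not used. The difference per locus kept its direction under all 8 alternatives for ACTN1, FLNC, VCL and PXN, under 7 for ACTN4 and ZYX, 6 for TLN1 and 5 for PTK2. Where all 4 libraries gave separate groups, as at ACTN1, ACTN4, FLNC, VCL and PXN, leaving out a library could not change direction or order. The groups overlapped at ACTN1 under 2 of the 8 and at ACTN4 under 3. Single loci were not tested, since an exact permutation p of 2 libraries against 2 cannot go below 0.333.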
